A study of Mus musculus with 24 samples.

Results

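Immediate early genes were followed through a sequencing study of the embryonic mouse inner ear, as the set Fos, Fosb, Fosl1, Jun, Junb, Egr1, Egr2, Atf3, Ier2 and Ier3. The 10 genes were taken as a list of symbols, drawn up with earlier results of these data known, and all 10 were present among the 53946 genes of the count table. PolyA RNA came from ventral otocysts, the lower part of the ear vesicle that holds the future cochlea, at embryonic day 14.5 in mice of strain C57BL/6J x 129X1/SvJ. Every library was made from a pool of 3 to 7 embryos that shared a genotype, either Fgf20+/- (called het) or Fgf20-/- (called mut), so there was no group with 2 intact copies of Fgf20. L10a-eGFP, a ribosomal protein fused to green fluorescent protein, was expressed in cells of the Fgf20-Cre lineage, and ribosomes pulled down with antibodies to GFP gave the TRAP libraries (translating ribosome affinity purification). The 16 TRAP libraries comprised 8 het and 8 mut, the 8 pre-TRAP libraries comprised 4 het and 4 mut, and each group was split evenly over 2 labelled experiments, with 4 libraries per TRAP group and 2 per pre-TRAP group in each. The labels do not say whether the embryo pools of different libraries were separate, so the p-values measure the spread between libraries.

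Immediate early genes are transcribed within minutes of a signal and need no newly made protein for it. Growth factors, FGFs among them, induce them through ERK kinase, which acts on ternary complex factors bound with SRF at CArG boxes, while other signals act through cyclic AMP response elements bound by CREB. Dissection, warming, hypoxia and dissociation of tissue are also known to induce them, which makes them a common marker of handling. In the developing cochlea, FGF20 from the prosensory domain signals through FGFR1 and is needed for the differentiation of hair cells and supporting cells.

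RefSeq promoter sequences, the 250 bases before a start site in build GRCm38.p6, were found for 7 members: Fos, Fosb, Jun, Junb, Egr2, Atf3 and Ier3. Fosl1, Egr1 and Ier2 had no entry. The promoters of Fos, Jun and Junb are printed 5′ to 3′ because these AP-1 genes moved in different comparisons below, and capitals mark TGACG, the core of a cyclic AMP response element. Fos lies on the plus strand at chr12:85473640-85473889, Jun on the minus strand at chr4:95052223-95052472 and Junb on the minus strand at chr8:84978749-84978998.
Fos: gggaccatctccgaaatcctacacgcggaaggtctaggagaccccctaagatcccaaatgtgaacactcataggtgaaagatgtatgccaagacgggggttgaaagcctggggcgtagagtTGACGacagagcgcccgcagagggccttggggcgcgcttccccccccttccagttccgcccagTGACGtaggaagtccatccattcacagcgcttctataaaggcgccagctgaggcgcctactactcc
Jun: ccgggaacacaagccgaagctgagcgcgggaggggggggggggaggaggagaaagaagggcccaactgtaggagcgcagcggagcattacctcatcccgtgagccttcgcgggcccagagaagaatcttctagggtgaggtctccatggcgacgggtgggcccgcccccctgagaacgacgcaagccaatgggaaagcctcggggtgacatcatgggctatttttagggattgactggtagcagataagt
Junb: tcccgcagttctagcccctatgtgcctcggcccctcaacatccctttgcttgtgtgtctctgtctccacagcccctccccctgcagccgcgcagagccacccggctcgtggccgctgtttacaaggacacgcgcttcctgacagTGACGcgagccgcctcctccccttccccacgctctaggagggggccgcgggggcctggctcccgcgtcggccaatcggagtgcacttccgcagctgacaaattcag
Egr2 has 5 start sites in the table, and a CArG box stood before 4 of them. The 30 bases that hold it upstream of the third start site, at chr10:67537793-67537822 on the plus strand, are printed with the CArG box and a TGACG core on the opposite strand (read here as CGTCA) in capitals.
Egr2: cagtCCATATATGGgcagcgaCGTCAcggg
TGACG was searched on both strands, and it is part of the longer motif TGACGTCA, which was searched as well. At least 1 window of 5 of the 7 members held TGACG (Fos, Fosb, Junb, Egr2 and Atf3), where Egr2 had 5 windows. With the first window of each member alone, 4 of 7 held it. Of 32851 promoters of the same length, each a single window, 17.8% held it. The CArG box was found in Egr2 alone of the 7, though not in its first window, against 1.47% of those promoters. Only these 250 bases were searched, so a CArG box farther upstream of any member, or one in Fosl1, Egr1 or Ier2, would be missed. No member window held TGACGTCA or the AP-1 motif TGANTCA, which were present in 1.55% and 6.75% of promoters.

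Library totals ran from 30745166 to 53374796 counts. Levels are given as normalised CPM, counts scaled to the library's total, which are not scaled to gene length, so levels are compared between libraries and not between genes. The targeted gene Fgf20 was at 3.13 to 5.92 CPM (median 4.02) in TRAP het and at 0.818 to 3.03 CPM (median 2.44) in TRAP mut, without overlap. Which part of the transcript the mutant allele lacks was not given in the sources used here. In markers of periotic mesenchyme, the tissue around the ear epithelium, 4 TRAP libraries ranked highest. Libraries 3, 4, 5 and 6, 2 het and 2 mut over both experiments, held a summed 541.6 to 1234 CPM of 9 mesenchymal markers, and all other TRAP libraries held less. Mut against het in TRAP, TRAP against pre-TRAP and the experiments in TRAP were therefore also compared without these 4 libraries. This choice was made after the data were seen, and the interaction terms were not refitted.

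Among the members, 3 were read at very low depth in every library. Fosb, a Fos family member, had 0 to 11 counts per library, Fosl1, which encodes FRA1, 0 to 18, and Junb, a Jun family member, 4 to 48. Fos itself had 1 to 31 counts in TRAP libraries, and there Egr2 had 0 to 14 and Atf3 had 2 to 39. At 0 counts a library allows up to 3, so small genotype differences in Fosb and Egr2 were not detectable in TRAP RNA at this depth. Jun, with 479 to 2003 counts per library, and Ier2, with 228 to 1561, were the best measured members.

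**Figure D1:**
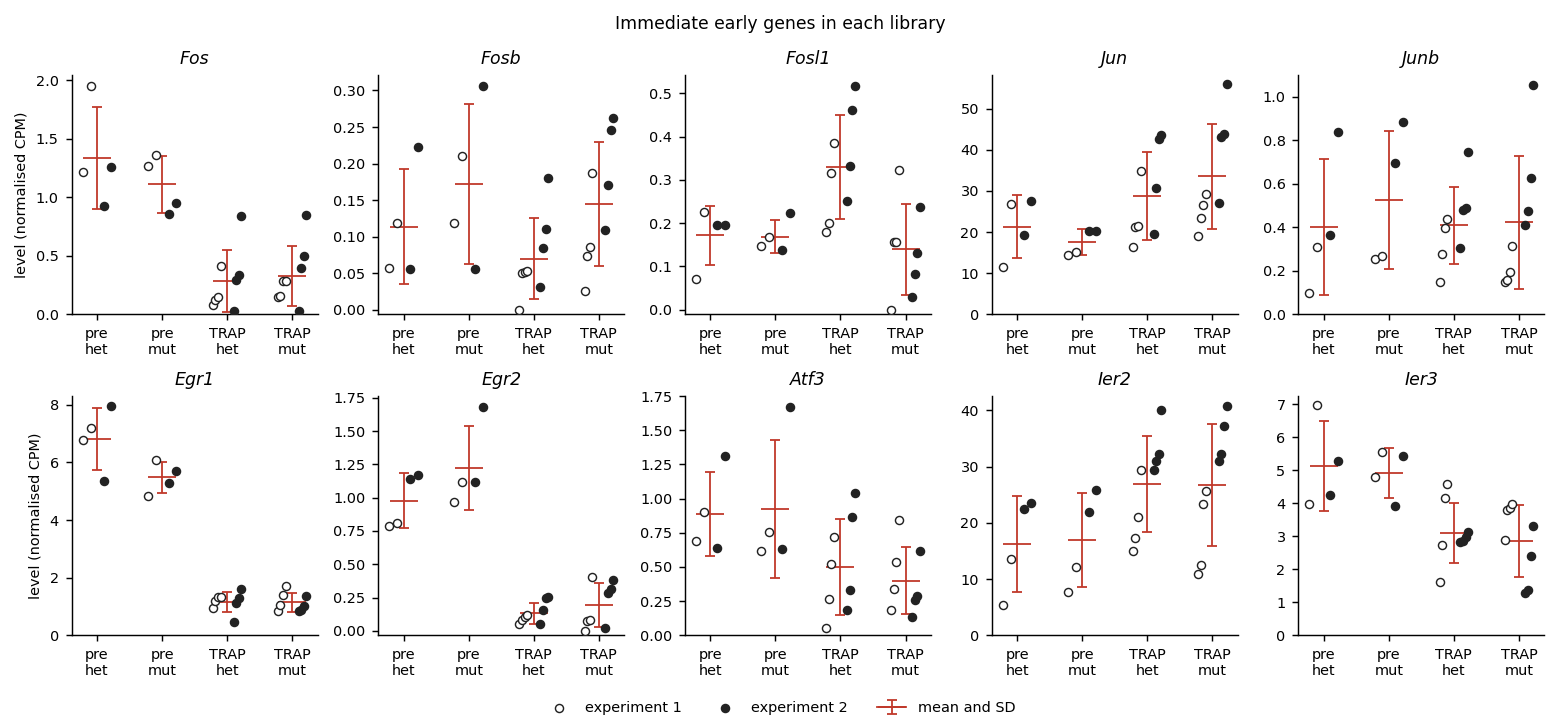
Level of each immediate early gene in normalised CPM (vertical axis, own scale per gene) in the 24 libraries, by group on the horizontal axis, with open points for experiment 1, filled points for experiment 2 and a red mean with SD. Fos, Egr1 and Egr2 are lower in every group of TRAP libraries than in pre-TRAP libraries, and the filled points of Ier2 lie above most open ones.

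Whether loss of the second Fgf20 allele altered the immediate early genes was read first in TRAP RNA. None of the 9 members tested differed between mut and het by edgeR's quasi-likelihood test with Benjamini-Hochberg adjustment over all genes, where 0.0742% of 21577 genes passed. DESeq2 and limma also called none of them, and at an unadjusted p under 0.05 there was 1 member, Fosl1, against 3.77% of all genes. Fosb did not pass the filter on low counts. Fosl1 passed that filter mainly through het libraries, where it was higher, so its p cannot be taken as a test of the difference.

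Among the Fos family, Fos was at 0.0257 to 0.841 CPM (median 0.219) in het and at 0.0284 to 0.845 CPM (median 0.280) in mut, with full overlap of the groups. The log2 fold change between mut and het was 0.21 ± 0.53 (SE, n = 8 per group, edgeR adjusted p = 1), and the interval of 2 SE ran from -0.85 to 1.27, so a change of more than 2-fold upward remained within the error. Fosl1 was at 0.179 to 0.518 CPM (median 0.324) in TRAP het and at 0 to 0.322 CPM (median 0.144) in TRAP mut. Its log2 fold change was -1.18 ± 0.46 (unadjusted p = 0.0175 and adjusted p = 1, edgeR), so this difference did not pass over all genes. Fosl1 shares its locus with Ccdc85b, which was at 0.359 to 7.57 CPM in TRAP het and 0.187 to 4.52 CPM in TRAP mut. Whether the counting used strand was not given in the sources used here, and reads of the 2 genes cannot be told apart where they overlap.

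Jun, the AP-1 partner of Fos, was at 16.4 to 43.5 CPM (median 26.1) in TRAP het and at 19.0 to 56.1 CPM (median 28.1) in TRAP mut. The log2 fold change was 0.17 ± 0.19, with an interval of -0.20 to 0.55. Junb was at 0.149 to 0.744 CPM (median 0.415) in het and 0.148 to 1.05 CPM (median 0.360) in mut, a log2 fold change of -0.10 ± 0.33. In both Jun genes the 2 genotypes covered much the same range.

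Egr1, a zinc finger factor widely used as a readout of ERK signalling, was at 0.462 to 1.60 CPM (median 1.24) in TRAP het and at 0.833 to 1.72 CPM (median 1.04) in TRAP mut. Its log2 fold change was -0.05 ± 0.24, with an interval of -0.52 to 0.43. For Egr2, which has a role in hindbrain and Schwann cell development, the log2 fold change of 0.53 ± 0.58 rested on at most 14 counts per library. Egr2 passed the low-count filter mainly through mut libraries.

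Atf3, a stress-induced factor of the CREB family, was at 0.0526 to 1.04 CPM (median 0.429) in TRAP het and at 0.136 to 0.843 CPM (median 0.312) in TRAP mut. Ier2, a nuclear protein induced by growth factors, was at 15.0 to 40.1 CPM (median 29.4) in TRAP het and at 10.9 to 40.8 CPM (median 28.3) in TRAP mut. Its log2 fold change of -0.07 ± 0.17 had the narrowest interval of the members in this comparison, -0.41 to 0.28. Ier3, a regulator of cell survival, differed by -0.18 ± 0.23, with an interval of -0.64 to 0.28. Without the 4 libraries rich in mesenchymal markers, 0 members were called again, and Fosl1 gave -1.54 ± 0.55 (edgeR adjusted p = 0.925).

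In pre-TRAP RNA 0 of the 8 members tested differed between mut and het, by edgeR, DESeq2 or limma, where 0.00455% of 21954 genes passed in edgeR. None of the 8 had an unadjusted p under 0.05, against 4.77% of all genes. Egr1 had values of 6.80, 7.19, 7.95 and 5.37 CPM in the 4 het libraries and 4.85, 6.08, 5.71 and 5.29 CPM in the 4 mut libraries. The mut values were mostly lower but overlapped the lowest het value, and the log2 fold change was -0.33 ± 0.19 (edgeR adjusted p = 0.837). Fos was at 1.21, 1.95, 1.25 and 0.922 CPM in het and 1.36, 1.27, 0.855 and 0.947 CPM in mut, a log2 fold change of -0.28 ± 0.25. Jun gave -0.30 ± 0.23, while Junb (0.38 ± 0.41) and Egr2 (0.31 ± 0.25) had the opposite sign. Ier3 gave -0.07 ± 0.22, Ier2 0.05 ± 0.25 and Atf3 0.02 ± 0.35. Of the 8, 4 were negative and 4 positive. Fosb and Fosl1 were not tested.

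The genotype difference itself was compared between TRAP and pre-TRAP RNA by an interaction term, and 0 of 24242 genes, members included, passed (edgeR). At an unadjusted p under 0.05 there were 302 genes, 1.25% of those tested, and 0 members. For Jun, whose estimates had opposite signs in the 2 kinds of RNA, the interaction was 0.50 ± 0.33 on the log2 scale (adjusted p = 1). A term for a genotype difference that changes with the experiment passed for 0 of 21577 genes in TRAP RNA (edgeR), with 455 genes (2.11%) and 0 members at an unadjusted p under 0.05.

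**Figure D2:**
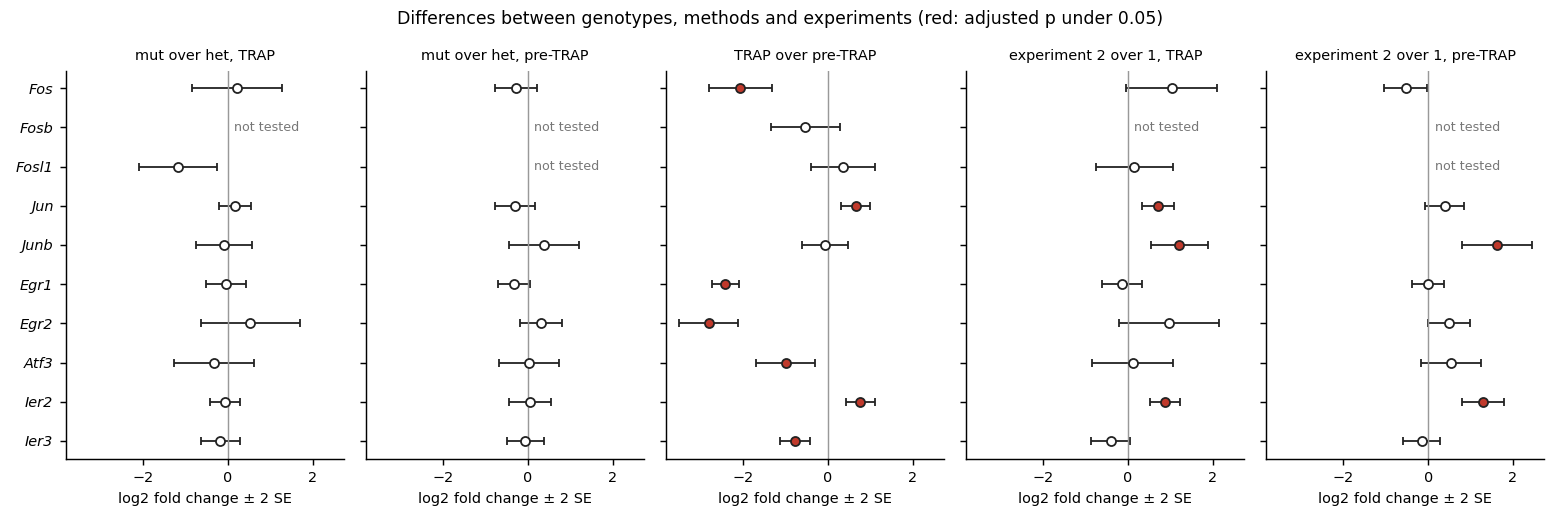
Log2 fold changes (horizontal axis) of the 10 members (vertical axis) in 5 comparisons, with bars of 2 standard errors and red points at an edgeR adjusted p under 0.05. No member is red in either genotype comparison, 7 are red between TRAP and pre-TRAP, and Junb and Ier2 are red between experiments in both kinds of RNA.

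Other genes of the FGF and ERK response were set beside the members. The list held 15 genes, among them feedback inhibitors (Dusp, Spry and Spred genes) and the ETS factors Etv1, Etv4 and Etv5, and all 15 were tested. In TRAP RNA 1 of the 15 was called, Dusp6, a phosphatase of ERK, which was at 35.9 to 76.5 CPM (median 56.9) in het and 27.5 to 40.6 CPM (median 32.4) in mut, ranges that overlapped at their ends. Dusp6 fell by 0.79 ± 0.14 on the log2 scale (edgeR adjusted p = 0.0327). Of the 15, 13 had a negative log2 fold change and 10 an unadjusted p under 0.05, with a median of -0.467, beside -0.015 over all genes tested. The 9 members tested had a median of -0.065, and 32 other immediate early genes (such as Nr4a1, Dusp1, Klf4 and Btg2) had one of -0.038, with 0 of 32 called and 2 at an unadjusted p under 0.05 (Nr4a1 and Trib1). Etv1, a target of FGF signalling, had a log2 fold change of -0.73 ± 0.14 (edgeR adjusted p = 0.0508) and Etv5 one of -0.56 ± 0.12 (adjusted p = 0.0886), so both missed the threshold. The difference between the lists was not tested. Markers of the prosensory and otic epithelium moved with the same comparison: 7 of 8 had a negative log2 fold change in TRAP RNA, with a median of -0.317, and 4 had an unadjusted p under 0.05. Among them Hey2, a Notch effector of the prosensory domain, was called (-1.13 ± 0.14, edgeR adjusted p = 0.000818), Sox2 gave -0.47 and Epcam -0.26, and the list includes Fgf20 itself (-0.94). The 8 markers summed to 598.6 to 859.1 CPM in TRAP het and 622.1 to 746 CPM in TRAP mut, and none was at 0. That sum weighs abundant markers most. With the 8 weighted equally, the mean log2(CPM + 0.5) was 4.66 (SD 0.157) in TRAP het and 4.305 (SD 0.083) in TRAP mut. Isl1 is also on the list of neuronal markers used below. Their part in the differences of the FGF and ERK response genes was not tested.

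Genes of the heat shock and integrated stress responses stood in for stress on the tissue. None of 12 heat shock genes was called between genotypes in TRAP RNA (edgeR), 0 had an unadjusted p under 0.05, and their median was -0.048. The inducible chaperone Hspa1a was at 0.205 to 0.975 CPM in TRAP het and 0.417 to 1.02 CPM in TRAP mut, though its near-identical copy Hspa1b may share its reads. Of 10 genes of the integrated stress response, which limits translation under stress, 0 were called and 0 had an unadjusted p under 0.05, with a median of -0.101. In pre-TRAP RNA 0 of 15 FGF and ERK response genes were called (edgeR), 6 had an unadjusted p under 0.05 and the median was -0.364, beside -0.026 for the 8 members tested, 0.006 for heat shock genes and -0.026 for all genes. The genes named in TRAP RNA had small differences there, at -0.07 ± 0.15 for Dusp6, -0.15 ± 0.16 for Etv1 and 0.03 ± 0.14 for Etv5. Their genotype-by-method terms were -0.70, -0.57 and -0.57 on the log2 scale (edgeR unadjusted p of 0.00338, 0.0171 and 0.004, adjusted p = 1). The 8 prosensory and otic epithelial markers had a median of -0.461 in pre-TRAP RNA, with 4 at an unadjusted p under 0.05 and 0 called, and their part was not tested.

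**Figure D3:**
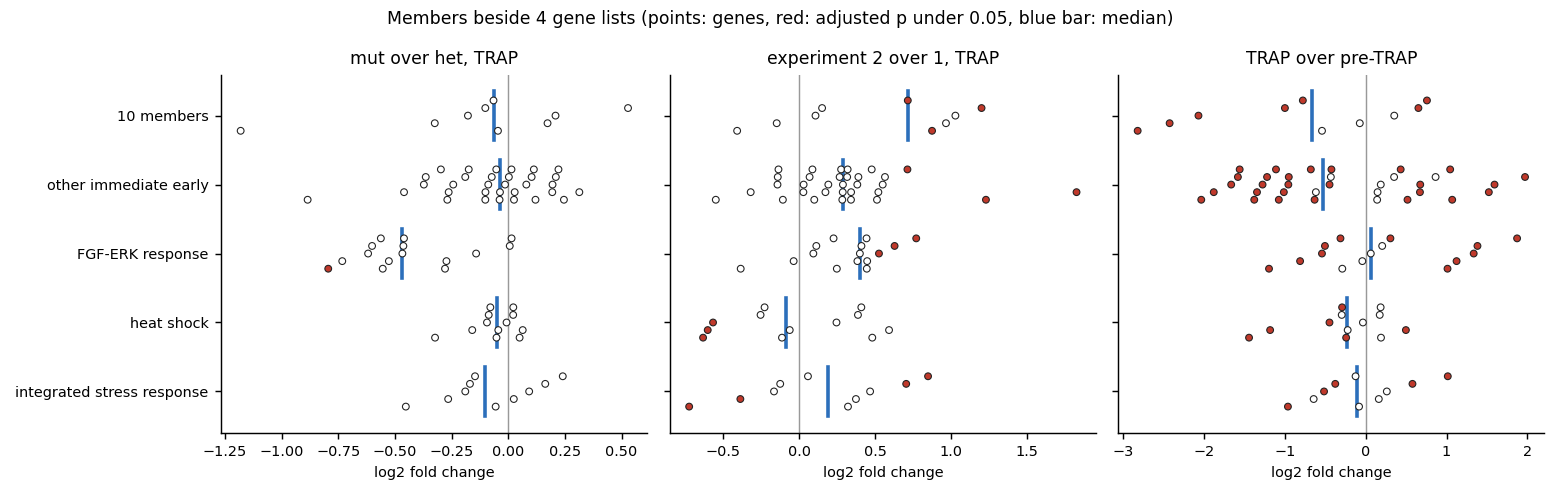
Log2 fold change (horizontal axis) of each tested gene in the 10 members and 4 other lists (vertical axis), for mut over het in TRAP, experiment 2 over 1 in TRAP, and TRAP over pre-TRAP, with red points at an edgeR adjusted p under 0.05 and a blue bar at the list's median. Between genotypes the FGF-ERK list centres at -0.467 and the members at -0.065, and between experiments the members centre at 0.714.

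TRAP and pre-TRAP RNA differed in both the cells they came from and their binding to ribosomes, and these cannot be told apart here, nor can fewer cells of a type from less RNA per cell. Fos, Egr1, Egr2, Atf3 and Ier3 were lower in TRAP RNA, Jun and Ier2 were higher, and Fosb, Fosl1 and Junb were not called. The 7 called members of 10 tested compare with 59.1% of 24242 genes called (27.9% higher and 31.2% lower), so this share was near the background.

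Egr2 was at 0 to 0.406 CPM (median 0.111) in TRAP and at 0.790 to 1.68 CPM (median 1.12) in pre-TRAP libraries, with no overlap. Its log2 fold change of TRAP over pre-TRAP was -2.82 ± 0.35 (edgeR adjusted p = 1.11e-07). The overlapping gene Gm32255 was also lower, at 0 to 0.213 CPM in TRAP het, 0 to 0.104 CPM in TRAP mut, 0.0836 to 0.649 CPM in pre-TRAP het and 0.630 to 0.780 CPM in pre-TRAP mut, and its part in the Egr2 counts was not tested. Egr1 was at 0.462 to 1.72 CPM (median 1.16) in TRAP and 4.85 to 7.95 CPM (median 5.89) in pre-TRAP, again with no overlap, a log2 fold change of -2.42 ± 0.16 (adjusted p = 6.51e-13, edgeR).

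Fos was at 0.0257 to 0.845 CPM (median 0.280) in TRAP and 0.856 to 1.95 CPM (median 1.23) in pre-TRAP. The highest TRAP library came close to the lowest pre-TRAP library, and the log2 fold change was -2.07 ± 0.37 (edgeR adjusted p = 3.27e-05). In experiment 1 alone it was -2.84 ± 0.37, and in experiment 2 alone -1.24 ± 0.59 (adjusted p = 0.101), where the call was lost. The method-by-experiment term for Fos was 1.51 ± 0.72 (edgeR unadjusted p = 0.0464, adjusted p = 1), so the difference between experiments did not pass, nor did that of any other member, where 9 genes (0.0371%) did.

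Ier3 was at 1.28 to 4.57 CPM (median 2.93) in TRAP and at 3.92 to 6.97 CPM (median 5.03) in pre-TRAP, with some overlap, and fell by 0.78 ± 0.18 (edgeR adjusted p = 0.000513). Atf3 was at 0.0526 to 1.04 CPM (median 0.336) in TRAP and 0.620 to 1.67 CPM (median 0.723) in pre-TRAP, a log2 fold change of -0.998 ± 0.35 (adjusted p = 0.0152, edgeR). The Atf3 call was lost when pre-TRAP mut library 24 was left out (-0.79 ± 0.36, edgeR adjusted p = 0.0689). It was also lost in each experiment taken alone, at -0.80 in the first (adjusted p = 0.180) and -1.20 in the second (adjusted p = 0.0516), and in het libraries alone (-0.86, adjusted p = 0.188).

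The best measured members went the other way. Ier2 was at 10.9 to 29.4 CPM (median 19.1) in TRAP libraries of experiment 1, against 13.6, 5.42, 7.72 and 12.1 CPM in its pre-TRAP libraries. In experiment 2 it was at 29.3 to 40.8 CPM (median 32.2) in TRAP and at 23.6, 22.4, 21.9 and 25.8 CPM in pre-TRAP. The groups of experiment 2 did not overlap, and over both experiments the log2 fold change was 0.76 ± 0.17 (edgeR adjusted p = 0.000421). Jun was at 16.4 to 56.1 CPM (median 28.1) in TRAP and 11.4 to 27.7 CPM (median 19.7) in pre-TRAP, with overlap, a log2 fold change of 0.65 ± 0.17 (adjusted p = 0.00172, edgeR). The Jun call was lost in experiment 1 alone (0.47, adjusted p = 0.118) and in het libraries alone (0.40, adjusted p = 0.253).

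Of 34 other immediate early genes tested between TRAP and pre-TRAP RNA, 9 were higher, 18 lower and 7 not called, with a median of -0.531. Klf4 (-2.03) and Klf2 (-1.88), Krüppel-like factors, and Zfp36 (-1.66), which promotes mRNA decay, were among those lower. Gadd45g (1.97), Dusp1 (1.59) and the third Jun gene, Jund (1.52), were among those higher. Markers of other cells moved with the same comparison. The 5 endothelial markers summed to 2.86 to 13.3 CPM in TRAP and 31.9 to 42.0 CPM in pre-TRAP libraries, 6 macrophage markers to 1.81 to 5.57 CPM and 15.5 to 25.01 CPM, 9 mesenchymal markers to 265.5 to 1234 CPM and 915.1 to 1388 CPM, and 7 erythroid markers to 461.3 to 1600 CPM and 6837 to 16050 CPM. Higher in TRAP were 7 neuronal markers, at 2534 to 4656 CPM against 470.1 to 745.2 CPM, and 8 prosensory and otic epithelial markers, at 598.6 to 859.1 CPM against 122.5 to 180 CPM. Isl1 counts in both of these sums. No endothelial, mesenchymal, neuronal or prosensory marker was at 0 in any library, and the part of these cells in the members' differences was not tested. Without the 4 libraries rich in mesenchymal markers the same count of 7 members was called, with Egr2 at -3.19, Egr1 at -2.52, Fos at -2.25 and Atf3 at -1.29. With all libraries that count was near the share of all genes called (59.1%), and the share without these 4 is not given here.

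The 2 labelled experiments differed in some of the members. In TRAP RNA Jun, Junb and Ier2 were higher in experiment 2, 3 of 9 members tested, where 23% of genes were called (14.1% higher). The other 6 were not called. Ier2 rose from 10.9 to 29.4 CPM (median 19.1) in experiment 1 to 29.3 to 40.8 CPM (median 32.2) in experiment 2, a log2 fold change of 0.87 ± 0.18 (n = 8 per experiment, edgeR adjusted p = 0.000906). The 2 ranges met only at their ends. Junb, at 0.148 to 0.436 CPM (median 0.234) and 0.305 to 1.05 CPM (median 0.483), rose by 1.20 ± 0.34 (adjusted p = 0.0126, edgeR) with 4 to 48 counts per library. Jun, at 16.4 to 34.9 CPM (median 22.5) and 19.4 to 56.1 CPM (median 42.9), rose by 0.71 ± 0.19 (edgeR adjusted p = 0.00822).

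In pre-TRAP RNA Junb and Ier2 were again higher in experiment 2, 2 of 8 members tested against 14.7% of genes called (9.74% higher). Ier2 had the pre-TRAP values given above, with every library of experiment 2 above every library of experiment 1, and a log2 fold change of 1.29 ± 0.25 (n = 4 per experiment, edgeR adjusted p = 0.00396). Junb was at 0.310, 0.0952, 0.252 and 0.266 CPM in experiment 1 and at 0.836, 0.363, 0.883 and 0.697 CPM in experiment 2, also without overlap. Its log2 fold change was 1.61 ± 0.41 (adjusted p = 0.0192, edgeR), a call lost when library 17, 18, 20, 21 or 22 was left out (adjusted p of 0.0534 to 0.0729). Jun did not pass (0.39 ± 0.23, adjusted p = 0.291, edgeR), but passed without pre-TRAP het library 19 (0.73, adjusted p = 0.0145).

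Split by genotype, the experiment difference of Ier2 in TRAP was 0.74 ± 0.23 in het libraries alone (edgeR adjusted p = 0.0769) and 1.03 ± 0.25 in mut libraries alone (adjusted p = 0.0131). In het libraries alone Jun gave 0.59 and Junb 0.73 in TRAP (adjusted p = 0.335 and 0.494, edgeR). Over all genes, 5.85% were called in TRAP het libraries alone and 15.4% in TRAP mut libraries alone, beside 0 and 3 members. For pre-TRAP the shares were 2.84% and 12.8%, beside 0 and 2 members. The genotype-by-experiment term given above passed for no member in TRAP RNA, and it was not tested in pre-TRAP RNA. Fos did not pass in either kind of RNA, at 1.03 ± 0.53 in TRAP (edgeR adjusted p = 0.179) and -0.53 ± 0.25 in pre-TRAP (adjusted p = 0.191). Egr1 differed by -0.15 ± 0.24 in TRAP and by -0.01 ± 0.19 in pre-TRAP, with an interval in the latter of -0.38 to 0.36.

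Stress genes did not move as 1 block between experiments. In TRAP RNA 3 of 12 heat shock genes fell, Hspa8 by 0.63 ± 0.13, Hspd1 by 0.60 ± 0.12 and Dnaja1 by 0.57 ± 0.10 (edgeR adjusted p of 0.000996, 0.000562 and 0.000232), all abundant chaperones or chaperone partners. None rose, and inducible Hspa1a gave 0.39 ± 0.29 (adjusted p = 0.368). In pre-TRAP RNA the same 3 had log2 fold changes of -0.50 (Hspa8), -0.46 (Hspd1) and -0.42 (Dnaja1) and missed the threshold (edgeR adjusted p of 0.0822, 0.0908 and 0.0593). There Dnajb1 (0.49 ± 0.14) and Hsf1 (0.64 ± 0.15), a chaperone partner and the heat shock factor, rose (edgeR adjusted p = 0.0366 and 0.0136). Of 32 other immediate early genes, 3 rose in TRAP RNA (Jund, Dusp2 and Per1) and 1 in pre-TRAP RNA (Ccn2). Of the 15 FGF and ERK response genes 3 rose in TRAP RNA (Spred2, Etv4 and Ccnd1) and 4 in pre-TRAP RNA (Dusp4 by 0.99, Ccnd1 by 0.83, Etv4 by 0.72 and Phlda1 by 0.70), where 14.1% and 9.74% of all genes were called higher. Dusp6 differed by -0.04 ± 0.14 in TRAP RNA. Of 7 neuronal markers 2 fell in experiment 2 of TRAP, and the 7 summed to 3713 to 4656 CPM in experiment 1 and 2534 to 3978 CPM in experiment 2, and their part in the members' differences was not tested.

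Within groups and experiments the members were compared with their own mean and with each other. After the mean of each group and experiment was removed, Pearson's r between a member and the mean of all members over 24 libraries ran from -0.049 for Jun to 0.688 for Atf3, with 0.549 for Fos and 0.412 for Egr1. Among pairs, Egr1 and Egr2 had the highest r, 0.602, and Jun and Ier3 the lowest, -0.477. The other genes whose residual pattern was most like the members' mean, out of 14762 with a mean of at least 2 CPM, were Cchcr1 (r = 0.851), Sptlc2 (0.816) and Chst14 (0.785). The members' mean includes each member itself, several members had few counts, and all values share the libraries and their depth. These values are a description and cannot show whether the members vary as a unit.

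Fos was also compared with 11 genes chosen from the members, the FGF and ERK response and the heat shock response across TRAP libraries, as 33 relations over all 16 libraries and within each experiment of 8. None passed Benjamini-Hochberg adjustment. The relation with Ier2 in experiment 2 had Pearson's r = 0.850 (exact permutation p = 0.00806, adjusted p = 0.25) and Spearman's rho = 0.881 (exact permutation p = 0.00724, adjusted p = 0.239), and r = 0.960 without the 2 libraries farthest from the median of Fos. In experiment 1 the same relation had r = -0.232. With Atf3 in experiment 1, r was 0.807 (exact permutation p = 0.0152, adjusted p = 0.25) and rho 0.833 (exact permutation p = 0.0154, adjusted p = 0.254), with r = 0.686 without the 2 farthest libraries, and in experiment 2 r was 0.248. With Dusp6, r over all 16 TRAP libraries was 0.170 (permutation p = 0.528, adjusted p = 0.751).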

How the data were processed

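RNA was measured by sequencing in 24 libraries of mouse ventral otocyst. The authors deposited 1 table of raw counts per Ensembl gene, with STAR and DESeq2 named among the tools and GRCm38.p5 as the build per the submitters' processing notes; the sources used here name neither the counting program nor its strand setting. Libraries were made with the Clontech SMARTer kit, per the labels. Every count column matched 1 library by its number. Symbols were found for 53274 of 53946 genes, and 10068 genes had no count. No pair of libraries of the same group, whether of the same experiment or not, agreed within sampling noise (chi-square 23.8 to 234 times its degrees of freedom, 68 pairs). The range therefore takes in differences between the experiments.

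From the deposited counts, edgeR 4.0.16 in R 4.3.3 gave TMM factors (0.797 to 1.142), a low-count filter (filterByExpr, minimum count 10), quasi-likelihood tests with experiment (or genotype) as covariate, and Benjamini-Hochberg adjustment over all genes tested at 0.05. For TRAP against pre-TRAP both genotypes weighed equally. Correlations used log2(CPM + 0.5). DESeq2 1.42.0, limma 3.58.1 (voom with quality weights), DESeq2 size factors, no filter, other covariates, subsets and each library left out were alternatives. Scripts were tested on simulated counts. Members not named in a comparison were not called or not tested there, and members of the other lists are named beside their list's counts. The members and lists were chosen with earlier results of these data known.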

Additional observations from a re-analysis of the deposited data

Results flagged for a closer look

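In 40 sets of values (10 members in 4 groups), the highest or lowest library was checked for a gap to its neighbour that was wide for the range of its group, which chance gives in about 1 of 20 groups. There were 2 such libraries. Fos was at 0.841 CPM in TRAP het library 3 (30 counts), and the next library of that group was at 0.411 CPM. This is 1 of the 4 libraries rich in mesenchymal markers, with 726.3 CPM of the 9 markers summed. Atf3 was at 1.67 CPM in pre-TRAP mut library 24 (60 counts), and the next library of that group was at 0.755 CPM. Without that library the difference of Atf3 between TRAP and pre-TRAP was -0.79 on the log2 scale (edgeR adjusted p = 0.0689), in place of -0.998 (adjusted p = 0.0152).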

How the results depend on the processing

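No member was called between genotypes or in any interaction under any alternative run. TRAP against pre-TRAP gave 7 members (59.1% of all genes), 5 in experiment 1, in experiment 2 or in het libraries alone (45.6%, 45.4% and 39.9% of all genes), 7 in mut libraries alone (48.8%), and 6 to 7 with each library left out. Experiment 2 against 1 gave 3 members in TRAP and 2 in pre-TRAP, 0 in het libraries alone in both (5.85% and 2.84% of all genes, in place of 23% and 14.7%), and 1 to 3 in pre-TRAP (3 throughout in TRAP) with each library left out. Mut libraries alone, equal in number to the het libraries, gave 3 members in TRAP and 2 in pre-TRAP (15.4% and 12.8% of all genes). The cause of these differences was not tested.

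Signs changed only for differences that were not called. For mut over het in TRAP, experiment 1 alone gave 0.286 (Atf3), 0.0726 (Egr1) and 0.168 (Ier3), experiment 2 alone 0.0839 (Ier2) and 0.347 (Junb), limma -0.536 (Egr2) and 0.176 (Junb), no experiment covariate 0.0471 (Junb), and leaving out the 4 libraries rich in mesenchymal markers 5e-04 (Ier2). In pre-TRAP, experiment 1 alone gave -0.199 (Atf3) and limma 0.0468 (Ier3). For TRAP over pre-TRAP, Junb gave 0.116 in experiment 1 and 0.127 in het libraries alone. For experiment 2 over 1 in TRAP, Atf3 gave -0.478 in mut libraries alone and -0.196 without the 4 libraries, where Fosl1 gave -0.0493. In pre-TRAP, Egr1 gave 0.0548 with limma and 0.0668 in mut libraries alone.

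Leaving out each library, the ranges that crossed 0 were, for mut over het in TRAP, -0.161 to 0.0634 (Egr1), -0.0453 to 0.581 (Fos), -0.150 to 0.0422 (Ier2) and -0.334 to 0.0183 (Junb), and in pre-TRAP -0.376 to 0.253 (Atf3), -0.159 to 0.372 (Ier2), -0.179 to 0.125 (Ier3) and -0.489 to 0.0312 (Jun). For TRAP over pre-TRAP the range was -0.189 to 0.099 (Junb), for experiment 2 over 1 in TRAP -0.122 to 0.329 (Atf3), and in pre-TRAP -0.103 to 0.0968 (Egr1) and -0.268 to 0.0258 (Ier3).

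No paired analysis was possible because the library numbers run from 1 to 24 without repeats, so no groups share a number. Of all genes, mut against het in TRAP gave 16 calls in edgeR, 53 with DESeq2 and 31 with limma. Depth limits Fosb, Fosl1, Junb and, in TRAP, Fos, Egr2 and Atf3, which had at most 48 counts in a library.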

Other observations

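Genes of the integrated stress response were called in both directions between the experiments, at a share of 10 tested that compares with 23% of all genes in TRAP and 14.7% in pre-TRAP RNA. In TRAP RNA Ddit4 (0.85 ± 0.16) and Sesn2 (0.70 ± 0.23), both inhibitors of mTOR signalling, were higher in experiment 2, and Asns (-0.73 ± 0.19), an enzyme that makes asparagine, and Ddit3 (-0.39 ± 0.12), which encodes CHOP, were lower (edgeR adjusted p of 0.00049, 0.0292, 0.00902 and 0.0236), while the other 6 of 10 did not pass. In pre-TRAP RNA Trib3 (1.22 ± 0.31), a pseudokinase, and Ddit4 (0.73 ± 0.23) were higher and Ddit3 (-0.50 ± 0.14) was lower (edgeR adjusted p of 0.0176, 0.0464 and 0.0337), and Asns gave -0.13 ± 0.24.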
